A study of Rattus norvegicus with 12 samples.

Results

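The genes described here are 10 markers of cardiac macrophages: Adgre1, Csf1r, Aif1, Cd68, Trem2, Fcgr1a, Cd163, Mrc1, Cd14 and Lyz2. They were chosen by symbol, and every array probe whose target identifier belongs to 1 of them was taken, which gave 13 of the 30367 probes, and 10 of the 15715 genes with a symbol, on the array. Csf1r, Aif1 and Fcgr1a had 2 probes each, the other genes 1. All 13 probes were flagged well above background on all 12 arrays, though the Mrc1 probe, at 23.45 to 75.07 intensity units, was of the order of the local background. RNA from the left ventricle of male Sprague-Dawley rats was hybridised to 12 one-colour arrays, 3 for each of 4 groups, and each array is labelled as a separate replicate with no pooling stated. All rats, controls included, ate a diet of 60% fructose for 8 weeks, a rat model of metabolic syndrome, so no group has a heart unexposed to fructose. The low sodium with AngII group had a NaCl content below 0.01% and a subcutaneous infusion of angiotensin II (AngII, a vasoconstrictor peptide) at 200 ng/kg/min during the last 4 weeks. The low sodium group had the same diet and no infusion. The normal sodium with AngII group had 0.64% NaCl and the same infusion, and the normal sodium group had 0.64% NaCl and no infusion. The study kept 40 rats on each diet, and 6 arrays per diet were analysed here.

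Macrophages are phagocytes that live in every tissue, and the heart holds both long-lived resident cells and cells that arise from blood monocytes. They clear dead cells, debris and haemoglobin, bind antibody-coated particles, sense bacterial products and exchange signals with fibroblasts, vessels and muscle cells. Their survival depends on signalling through the receptor that Csf1r encodes, and none of the 10 genes marks a single macrophage state.

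The tissue was checked with 7 genes of heart muscle (Myh6, Myl2, Myl3, Tnnt2, Tnni3, Actn2 and Ryr2), all well above background on all 12 arrays. As a list they are not limited to the ventricle, so they check for heart muscle and not for the chamber. Each array was scaled by its own 75th percentile over non-control probes, which lay between 1399 and 1988 intensity units, and no spot was saturated. A level is given as a percentage of that percentile and called the relative signal, which cannot be compared between probes. Of 4 atrial muscle genes Bmp10 was well above background on 0 arrays, while Sln and Myl7 varied widely within groups. Sln had 60.8 to 419% in low sodium hearts with AngII and 31.7 to 439% in low sodium hearts, against 11.7 to 157% in normal sodium hearts with AngII and 16.3 to 100% in normal sodium hearts. The replicate number is also the slide number, and each group always had the same place on the slide, so place and group cannot be told apart. Normal sodium replicate 1 stood apart with 88 non-uniform spots against 0 to 3 on the other arrays, and it had the lowest quality weight (0.279). The tissue was whole ventricle, so fewer macrophages and less RNA per macrophage cannot be told apart in any result here.

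Low sodium hearts had lower signals of most of these genes than normal sodium hearts in both infusion states, but no gene passed the test. Averaged over both infusion states, 9 of the 10 genes were lower on low sodium, with a median log2 difference of -0.49, and Lyz2 alone was above 0. Among all 20020 probes tested, 55.1% were below 0 (39.3% with the arrays scaled to equal medians) and the median was -0.023. Limma with Benjamini-Hochberg adjustment called 0 of 20020 probes (0%) for this mean effect, with 2508 at an unadjusted p below 0.05. At that unadjusted level 7 of the 10 genes were lower (Adgre1, Csf1r, Aif1, Cd68, Trem2, Fcgr1a and Mrc1), against 8.47% of all probes. Leaving out low sodium replicate 2 gave a median of -0.40 for the 10 genes, and leaving out normal sodium replicate 1 gave -0.50.

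**Figure D1:**
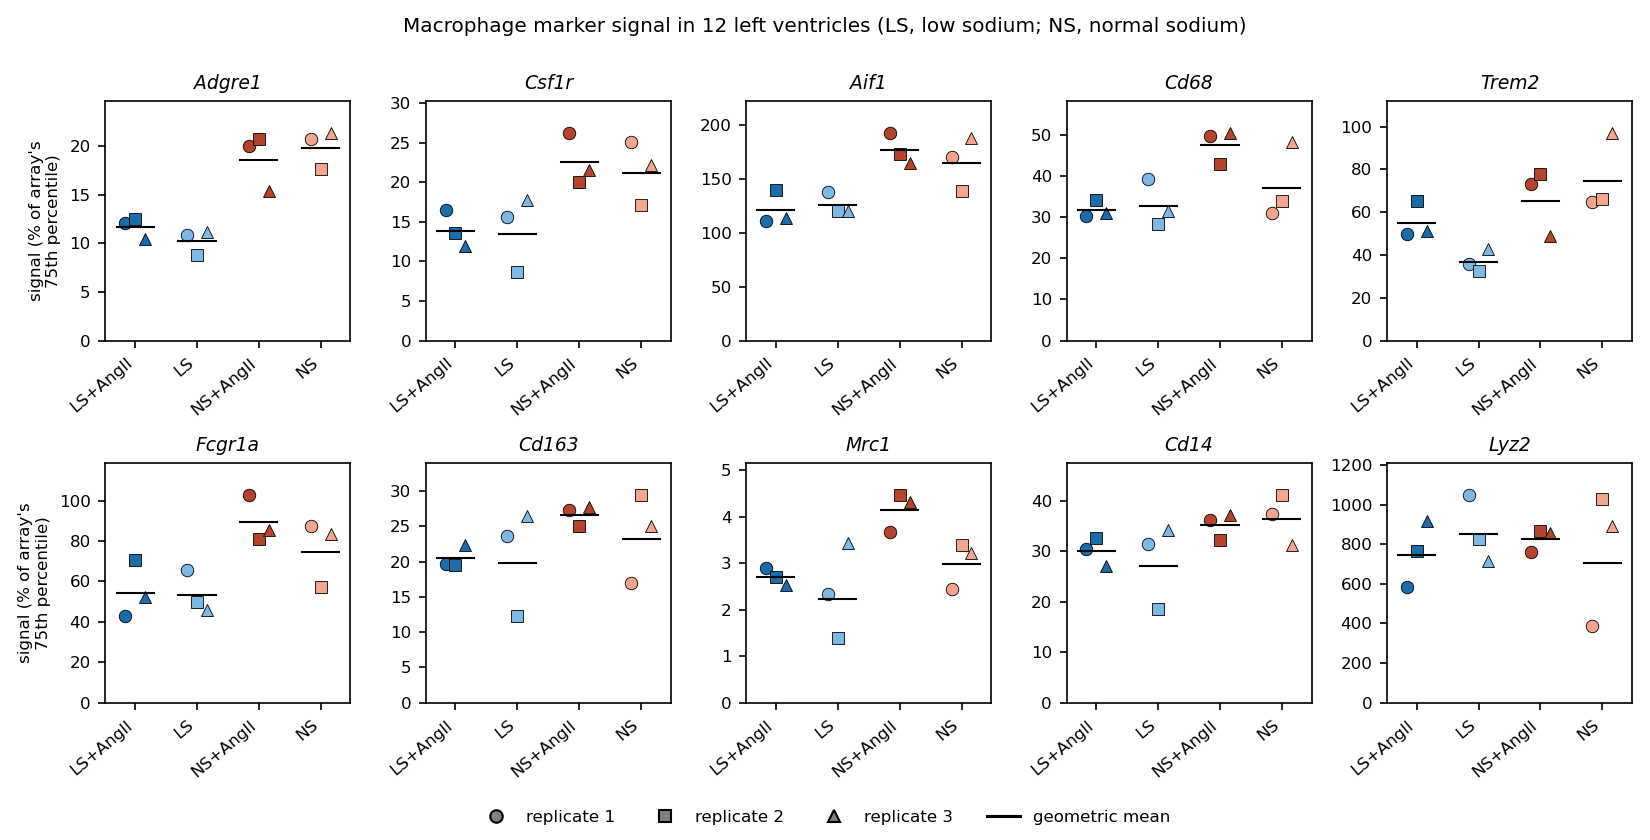
Relative signal (percent of the array's 75th percentile, linear axis from 0) of the brightest probe of each gene, with 1 point per array, a marker shape per replicate and a line at the geometric mean of each group. LS is low sodium and NS normal sodium. For Adgre1 the 6 low sodium arrays lie between 8.84 and 12.5% and the 6 normal sodium arrays between 15.4 and 21.4%.

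Among the general macrophage genes, Adgre1 encodes F4/80, an adhesion G protein-coupled receptor used to identify macrophages in rodents. Its relative signal was 12.1, 12.5 and 10.5% on the 3 arrays of low sodium hearts with AngII (replicates 1, 2 and 3), against 20, 20.7 and 15.4% in normal sodium hearts with AngII. Without infusion it was 10.9, 8.84 and 11.2% in low sodium hearts, against 20.7, 17.6 and 21.4% in normal sodium hearts. All 6 low sodium arrays were below all 6 normal sodium arrays, a separation that 0.977% of all probes with complete values showed in the lower direction. The mean difference was -0.81 ± 0.11 (log2 ± limma SE), 1.75-fold lower, with an unadjusted p of 1.47e-05 and an adjusted p of 0.116 (limma). It was the second smallest p among the 20020 probes (rank 2), and within the 3 slides the difference was -0.83, -0.86 and -0.74. The adjusted p lay between 0.0432 and 0.425 over the 23 alternative settings. It was below 0.05 with array weights (-0.79, adjusted p = 0.0475 in limma) and without normal sodium replicate 2 (-0.85, adjusted p = 0.0432 in limma). The normexp setting joined normexp background correction, an offset of 50 added to every intensity, and quantile normalization. In it the difference was -0.54, and what the offset alone does to log2 differences was not tested.

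Csf1r encodes the receptor for the growth factors CSF1 and IL-34. Its brighter probe gave 16.5, 13.6 and 12% in low sodium hearts with AngII, against 26.3, 20.1 and 21.6% in normal sodium hearts with AngII. Without infusion it gave 15.6, 8.70 and 17.8% in low sodium hearts, against 25.1, 17.1 and 22.2% in normal sodium hearts. The groups were apart under AngII and overlapped without infusion, where low sodium replicate 2 was the lowest array and low sodium replicate 3 lay above normal sodium replicate 2. The mean difference was -0.68 ± 0.18 (adjusted p = 0.186 in limma). The dimmer probe of Csf1r had a wider spread, from 5.80 to 25.2% over the 12 arrays, and a mean difference of -0.39 ± 0.36.

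Aif1 encodes IBA1, an actin-binding protein of macrophages and microglia. Its brighter probe was at 111, 140 and 114% in low sodium hearts with AngII, against 193, 173 and 165% in normal sodium hearts with AngII. In uninfused hearts it was at 138, 120 and 120% in low sodium hearts, against 170, 139 and 188% in normal sodium hearts. The groups did not overlap in either infusion state, though the highest low sodium array (140%) and the lowest normal sodium array (139%) met across states. The mean difference was -0.47 ± 0.10 (adjusted p = 0.144 in limma), and the dimmer probe gave -0.32 ± 0.12. Without infusion the dimmer probe's groups overlapped, at 97 to 114% in low sodium hearts against 112 to 177% in normal sodium hearts.

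Cd68 encodes macrosialin, a lysosomal membrane glycoprotein of phagocytes. Its relative signal was 30.2, 34.2 and 30.9% in low sodium hearts with AngII, against 49.7, 42.9 and 50.5% in normal sodium hearts with AngII. The uninfused hearts had 39.2, 28.2 and 31.5% in low sodium hearts, against 30.9, 33.9 and 48.2% in normal sodium hearts. The groups were apart under AngII and intermixed without infusion. The difference under AngII was -0.58 ± 0.18 (adjusted p = 0.305 in limma). Without infusion it was -0.18 ± 0.18, and it turned to 0.01 without normal sodium replicate 3.

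Lyz2 encodes lysozyme, an enzyme that digests bacterial walls, and its level had no order by diet. Its signal was 582, 767 and 919% in low sodium hearts with AngII, against 760, 864 and 855% in normal sodium hearts with AngII. The uninfused values were 1050, 825 and 715% in low sodium hearts, against 385, 1030 and 892% in normal sodium hearts. The groups overlapped in both states, and normal sodium replicate 1 was by far the lowest array. The mean difference was 0.06 ± 0.23, with an interval of -0.45 to 0.57, and it was -0.16 without normal sodium replicate 1.

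Among the receptors, Fcgr1a encodes the high-affinity receptor for immunoglobulin G. Its brighter probe was at 43.1, 70.8 and 52.3% in low sodium hearts with AngII, against 103, 81.0 and 85.6% in normal sodium hearts with AngII. With no infusion it was at 65.8, 49.7 and 45.8% in low sodium hearts, against 87.4, 57.4 and 83.5% in normal sodium hearts. Under AngII the groups were apart, and without infusion only normal sodium replicate 2 lay among the low sodium arrays. The mean difference was -0.61 ± 0.16 (adjusted p = 0.178 in limma), and the dimmer probe gave -0.67 ± 0.17.

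Trem2 encodes a lipid-sensing receptor that signals through the adaptor TYROBP. The Trem2 probe gave 49.6, 65.2 and 51.3% in low sodium hearts with AngII, against 73.1, 77.9 and 48.8% in normal sodium hearts with AngII. Hearts without infusion had 35.7, 32.5 and 42.9% in low sodium hearts, against 64.9, 66.0 and 97.2% in normal sodium hearts. The uninfused groups were well apart, while under AngII normal sodium replicate 3 lay below all 3 low sodium arrays and the other normal sodium arrays above them. The difference without infusion was -1.02 ± 0.22, 2.03-fold lower (unadjusted p = 0.000777, adjusted p = 0.507 in limma), and all 3 slides gave it (-0.86, -1.02 and -1.18). Under AngII it was -0.25 ± 0.22.

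Cd14 encodes the co-receptor that hands bacterial lipopolysaccharide to TLR4. The Cd14 probe gave 30.5, 32.7 and 27.0% in low sodium hearts with AngII, against 36.2, 32.3 and 37.2% in normal sodium hearts with AngII. In the absence of infusion it was 31.5, 18.6 and 34.2% in low sodium hearts, against 37.4, 41.2 and 31.2% in normal sodium hearts. Both pairs of groups overlapped, and the mean difference was -0.32 ± 0.15 (adjusted p = 0.405 in limma).

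Cd163 encodes the scavenger receptor for haemoglobin bound to haptoglobin, and it is a marker of resident and repair-type macrophages. Its relative signal was 19.6, 19.5 and 22.4% in low sodium hearts with AngII, against 27.3, 25 and 27.7% in normal sodium hearts with AngII. Without infusion it was 23.7, 12.3 and 26.4% in low sodium hearts, against 16.9, 29.5 and 25% in normal sodium hearts. The groups were apart under AngII and intermixed without it. The mean difference was -0.31 ± 0.19 (adjusted p = 0.555 in limma). The uninfused difference of -0.23 ± 0.28 turned to 0.11 without low sodium replicate 2.

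Mrc1 encodes the mannose receptor, which takes up glycoproteins, and its probe was dim, at 23.45 to 75.07 intensity units where local background was 20 to 29.5. Its relative signal was 2.90, 2.71 and 2.53% in low sodium hearts with AngII, against 3.67, 4.48 and 4.33% in normal sodium hearts with AngII. Without infusion it was 2.34, 1.40 and 3.43% in low sodium hearts, against 2.45, 3.39 and 3.23% in normal sodium hearts. The groups were apart under AngII, where the difference was -0.61 ± 0.27 (adjusted p = 0.440 in limma). That difference was -0.23 in the normexp setting, whose offset of 50 is of the order of this probe's intensity, and -0.02 in the authors' deposited values.

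**Figure D2:**
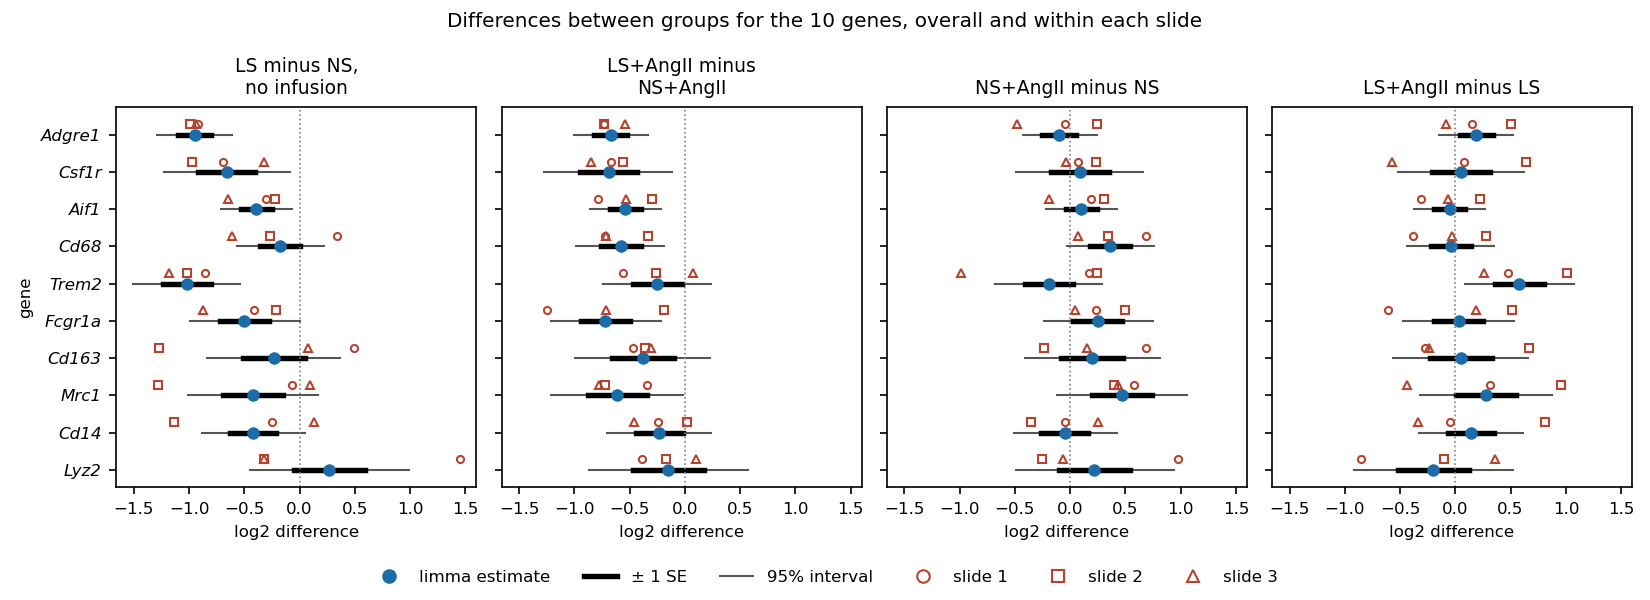
Log2 difference between groups for the brightest probe of each gene (limma estimate, thick bar 1 SE, thin bar 95% interval), with the difference within each slide as open markers. In both diet comparisons, at the left, all 3 slides of Adgre1, Csf1r, Aif1 and Fcgr1a lie below 0, while in the AngII comparisons, at the right, most intervals span 0. The dimmer probes are not drawn. Without infusion the dimmer Csf1r probe was at 0.08 on slide 3 and the dimmer Aif1 probe at 0.03 on slide 1.

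Promoters of the genes are shown for 3 of them that stood lowest in the mean diet difference, to set the letters of their start regions beside their values. RefSeq promoter sequences (assembly GRCr8, 5′ to 3′ on the gene's strand) matched 8 of the 10 genes. Each runs from 250 bases before to 50 after the start used in that set, 300 in all. Aif1 and Fcgr1a had no entry. Capitals mark GAGGAA, or TTCCTC where it lies on the other strand, the core letters bound by PU.1, the myeloid transcription factor encoded by Spi1.
Adgre1, chr9:2329190-2329489, plus strand: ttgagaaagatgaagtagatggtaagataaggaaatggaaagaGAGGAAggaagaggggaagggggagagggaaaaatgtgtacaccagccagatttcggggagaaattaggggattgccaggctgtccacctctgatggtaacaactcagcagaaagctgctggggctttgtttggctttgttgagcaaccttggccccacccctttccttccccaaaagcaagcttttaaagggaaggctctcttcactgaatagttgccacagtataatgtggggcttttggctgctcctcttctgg
Trem2, chr9:20151730-20152029, minus strand: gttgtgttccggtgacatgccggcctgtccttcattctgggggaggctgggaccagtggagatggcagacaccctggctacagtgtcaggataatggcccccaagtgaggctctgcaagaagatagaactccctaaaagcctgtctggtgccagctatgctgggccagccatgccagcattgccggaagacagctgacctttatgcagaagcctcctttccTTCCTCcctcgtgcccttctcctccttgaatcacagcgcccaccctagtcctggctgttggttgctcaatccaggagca
Csf1r, chr18:56834129-56834428, plus strand: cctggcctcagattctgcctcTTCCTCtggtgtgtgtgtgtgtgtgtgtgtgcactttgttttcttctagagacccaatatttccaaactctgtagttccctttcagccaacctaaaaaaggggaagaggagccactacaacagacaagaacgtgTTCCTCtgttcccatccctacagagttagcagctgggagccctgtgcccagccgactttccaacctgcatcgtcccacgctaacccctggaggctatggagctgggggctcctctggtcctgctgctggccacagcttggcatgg
GAGGAA was found on either strand in 7 of the 8 promoters, and in 27.6% of all 33469 promoters of the same length. Adgre1 and Trem2 hold it at 1 place each and Csf1r at 2. The annotated Csf1r gene begins at base 56834152 of chromosome 18, near the beginning of the printed stretch. Most of that stretch, with the second Csf1r match, thus lies inside the annotated gene and not upstream of it. The other strings were searched on both strands in the same way, and the longer ones can contain the shorter. The related purine-rich string GGGGAA was in 6 of the 8 (22.9% of all promoters). Part of the longer ETS consensus, GGAAGT was in 3 (22.6%), and with 1 more letter AGGAAGT was in 2 (8.41%). The C/EBP-type string TTGCAAT was in 1 (2.17%), as was the AP-1 string TGACTCA (4.63%). The full PU-box GAGGAAGT (2.42% of all promoters) was in 0 of the 8. The same held for the palindromic C/EBP string TTGCGCAA (0.17%) and for the TATA-box string TATAAA (14.2%). These matches describe letters only, and no binding was measured.

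The first diet comparison asks whether sodium restriction alters the hearts of rats that received no infusion. Here 9 of the 10 genes were lower on low sodium, with a median log2 difference of -0.42 against -0.009 over all probes, of which 51.7% were below 0. Trem2 (-1.02 ± 0.22) and Adgre1 (-0.95 ± 0.15) differed most, followed by Csf1r (-0.66 ± 0.26) and Fcgr1a (-0.50 ± 0.22). Aif1 was at -0.39 ± 0.14, Cd14 and Mrc1 both at -0.42, and Lyz2 at 0.27 ± 0.32. Limma called 0 of 20020 probes (0%), with 1407 at an unadjusted p below 0.05. At the unadjusted level 4 of the genes were lower (Adgre1, Csf1r, Aif1 and Trem2), against 4.16% of all probes. By the brightest probe of each gene, the groups did not overlap for 3 genes (Adgre1, Aif1 and Trem2), against 5.89% of probes in that direction. The dimmer Aif1 probe did overlap. Low sodium replicate 2 was the lowest array of all 12 for 7 of the genes, and the median without it was -0.25 with 8 genes below 0. Without normal sodium replicate 1 the median was -0.43 and all 10 genes were below 0.

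The second asks the same of hearts exposed to AngII. All 10 genes were lower in low sodium with AngII than in normal sodium with AngII, with a median log2 difference of -0.56 against -0.054 over all probes, of which 58.2% were below 0. With arrays scaled to equal medians 42.4% of all probes were below 0, and 43.9% in the authors' deposited values. Fcgr1a (-0.72 ± 0.22), Csf1r (-0.69 ± 0.26), Adgre1 (-0.67 ± 0.15) and Mrc1 (-0.61 ± 0.27) had the largest values, and Lyz2 the smallest at -0.15 ± 0.32. Limma called 0 of 20020 probes (0%), with 2223 at an unadjusted p below 0.05. At that level 6 genes were lower (Adgre1, Csf1r, Aif1, Cd68, Fcgr1a and Mrc1), against 7.41% of all probes, and with equal medians 5 of the genes against 3.94%. By the brightest probe of each gene, the groups did not overlap for 7 genes, those 6 and Cd163, against 12.3% of all probes. The dimmer Csf1r probe did overlap. The median was -0.36 in the normexp setting.

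AngII itself was compared with no infusion on each diet. On normal sodium 7 of the 10 genes were higher with AngII, with a median of 0.15 against 0.024 over all probes, of which 54.2% were above 0. The largest was Mrc1 at 0.47 ± 0.27 (adjusted p = 0.680 in limma), with 3.67, 4.48 and 4.33% in normal sodium hearts with AngII, against 2.45, 3.39 and 3.23% in normal sodium hearts. Those groups did not overlap, as for 7.46% of probes in that direction, but the difference was -0.01 in the authors' deposited values. Cd68 followed at 0.36 ± 0.18, with slides at 0.69, 0.34 and 0.07. Limma called 0 of 20020 probes (0%), with 1453 (7.26%) at an unadjusted p below 0.05, none of them from the 10 genes. The median of the 10 genes was 0.01 in the normexp setting and 0.02 in the authors' deposited values.

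On low sodium 7 of the 10 genes were likewise above 0, with a median of 0.05 against -0.016 over all probes, of which 45% were above 0. Trem2 was the exception in size, at 0.58 ± 0.22, 1.49-fold higher with AngII (unadjusted p = 0.0238, adjusted p = 1 in limma). All 3 low sodium arrays with AngII were above all 3 low sodium arrays without infusion for this gene, as for 3.08% of probes in that direction. The other 9 genes lay between -0.20 and 0.28. Limma called 0 of 20020 probes (0%), with 342 at an unadjusted p below 0.05, and 0.879% of probes were higher at that level.

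Whether AngII acted differently on the 2 diets was tested as an interaction, in which a positive value means a larger log2 difference on low sodium. Trem2 had the largest value, 0.77 ± 0.31 (unadjusted p = 0.0309, adjusted p = 0.857 in limma), with slides at 0.30, 0.77 and 1.25. The other 9 genes lay between -0.42 and 0.28, with intervals that all included 0. Limma called 0 of 20020 probes (0%), with 1014 at an unadjusted p below 0.05. At that level 2.1% of probes were higher. A diet difference that is larger in 1 infusion state than in the other was therefore not shown for any of the genes.

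**Figure D3:**
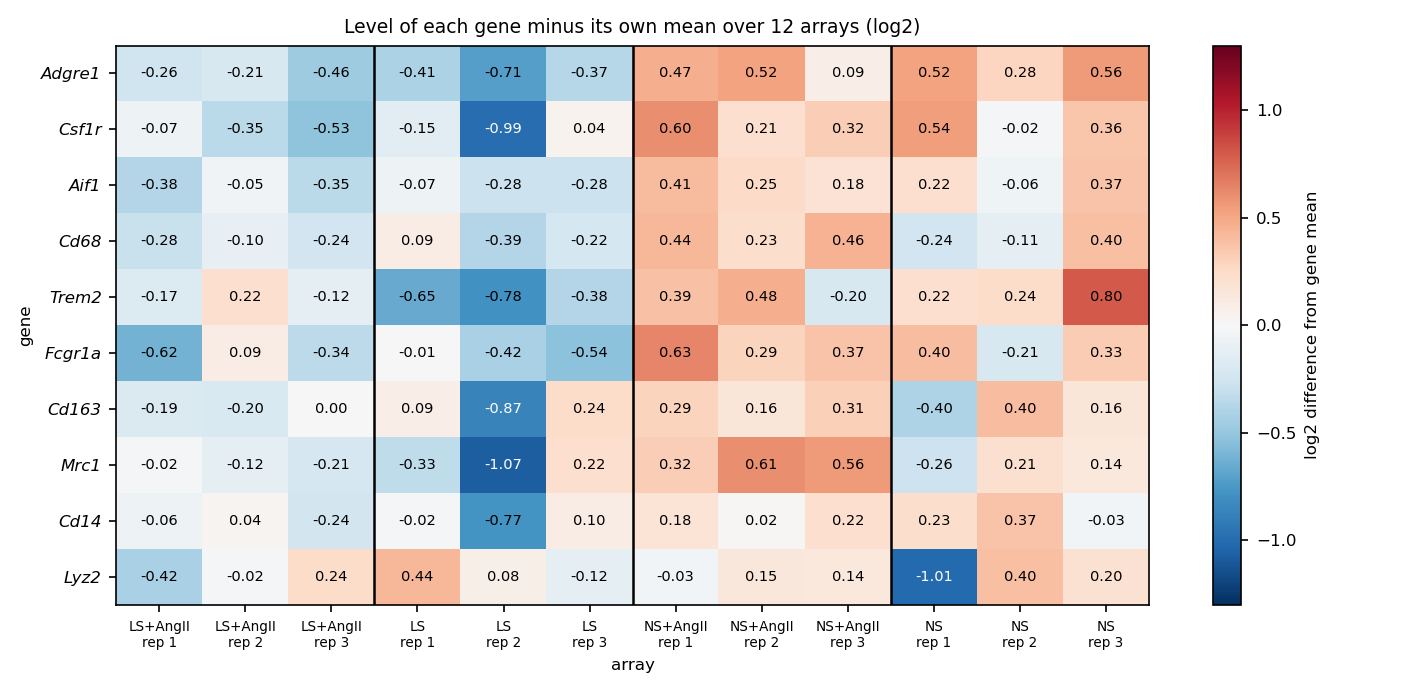
Log2 level of each gene minus its own mean over the 12 arrays, with blue below and red above that mean, arrays grouped by the vertical lines. Low sodium replicate 2 is blue for Csf1r, Mrc1, Cd163 and Cd14 far beyond the other low sodium arrays, and Lyz2 is lowest in normal sodium replicate 1.

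The mean centred level of the 10 genes was -0.25, -0.07 and -0.23 in low sodium hearts with AngII, and -0.10, -0.62 and -0.13 in low sodium hearts. It was 0.37, 0.29 and 0.24 in normal sodium hearts with AngII, and 0.02, 0.15 and 0.33 in normal sodium hearts. All 6 low sodium arrays were below 0 and all 6 normal sodium arrays above, with the uninfused low sodium group spread widest. Among the 45 pairs of genes, the median Pearson r over the 12 arrays was 0.61, and the highest were Aif1 with Fcgr1a (0.96), Adgre1 with Aif1 (0.88) and Adgre1 with Trem2 (0.87). After the group means were removed the median was 0.31, and 0.06 when low sodium replicate 2 was also left out. Lyz2 stood apart, with a median r of -0.08 with the other 9. These correlations describe 12 arrays that share scaling, slides and groups.

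Of 11179 other genes, those most like the mean of the 10 genes over the 12 arrays were Clec4a3 (r = 0.94), Clec4a1 (0.93), Ccl6 (0.93), Sox18 (0.92) and Fcgr2al1 (0.91). Clec4a3 and Clec4a1 encode related C-type lectin receptors of myeloid cells, which near-identical sequences could make hard to separate, and Ccl6 a chemokine of rodent myeloid cells. Sox18 is a transcription factor of endothelial cells. Clec4a3 had 18.9 to 22.6% in low sodium hearts with AngII and 16.4 to 23.3% in low sodium hearts, against 27.5 to 29.5% in normal sodium hearts with AngII and 24.3 to 26.0% in normal sodium hearts. The gene most like Adgre1 was Nat8b (r = 0.94), at 50.8 to 60.0% over both low sodium groups, against 60.5 to 71.9% over both normal sodium groups. The likeness chose these genes, so their differences are given as description only.

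The genes that work with these markers were taken from lists of 48 entries, where 45 had a probe on the array and 41 were bright enough for the test. Averaged over both infusion states, 39 of the 41 were lower on low sodium, with a median of -0.31, and 0 passed the adjusted test. At the unadjusted level 19 were lower, against 8.47% of all probes. The low and normal sodium arrays did not overlap for 4 of the 41 (Il34, Tlr2, Folr2 and Hmox1), against 0.977% of all probes with complete values. Without infusion the median of the 41 was -0.24, with 9 lower at the unadjusted level against 4.16% of all probes. Under AngII it was -0.39, with 17 lower against 7.41% of all probes.

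Around Csf1r, its ligands Csf1 (-0.31 ± 0.12) and Il34 (-0.25 ± 0.08), the GM-CSF receptor chain Csf2ra (-0.30 ± 0.11) and the transcription factor Spi1 (-0.45 ± 0.17) were all lower in the mean diet effect. For Csf1 the difference was -0.06 ± 0.17 without infusion and -0.55 ± 0.17 under AngII, and for Spi1 -0.07 ± 0.25 and -0.83 ± 0.25. The Spi1 probe was dim, with relative signals from 2.72% on a low sodium array to 7.22% on a normal sodium array with AngII. Whether these pairs differ between infusion states was tested as an interaction, which called 0 probes. Csf2rb, which encodes the shared signalling chain of that receptor, was not tested because it was too dim.

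Around Trem2, the adaptor Tyrobp was at -0.39 ± 0.13, Apoe, which encodes a lipid carrier, at -0.14 ± 0.16, and Gpnmb, a glycoprotein of lipid-laden macrophages, at -0.25 ± 0.17. Spp1, which encodes osteopontin, was the only one of the 41 genes above 0.1, at 0.47 ± 0.32, and Lgals3, which encodes galectin-3, was at 0.07 ± 0.12. Of the partners of Cd14, Tlr2 had the clearest difference at -0.53 ± 0.10 (adjusted p = 0.144 in limma). Its low and normal sodium arrays did not overlap, as for 0.977% of all probes in that direction. Ly96, which encodes the TLR4 partner MD-2, was at -0.25 ± 0.09, Tlr4 itself at -0.22 ± 0.16, the adaptor Myd88 at -0.07 ± 0.10 and the lipopolysaccharide carrier Lbp at -0.13 ± 0.24. Around Fcgr1a, its signalling chain Fcer1g was at -0.48 ± 0.12 (adjusted p = 0.169 in limma) and the inhibitory receptor Fcgr2b at -0.50 ± 0.15. Fcgr3a was at -0.31 ± 0.28 but dim, well above background on at most 10 arrays.

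Among markers of resident-type macrophages, the folate receptor Folr2 was at -0.60 ± 0.14 (adjusted p = 0.154 in limma), with no overlap between diets (0.977% of all probes). F13a1, a coagulation factor chain, was at -0.48 ± 0.19, the lectin Siglec1 at -0.38 ± 0.17, the hyaluronan receptor Lyve1 at -0.22 ± 0.16 and Gas6 at -0.19 ± 0.10. Mertk was too dim to test and Timd4 had no probe matched. Of the genes tied to recruited monocytes, the integrin chain Itgam was at -0.59 ± 0.31, the chemokine Ccl2 at -0.54 ± 0.19 and its receptor Ccr2 at -0.35 ± 0.27. Ccl7 was at -0.23 ± 0.14, Cx3cr1 at -0.11 ± 0.14 and Ly6c at -0.01 ± 0.14. Itgam and Ccr2 were dim, well above background on at most 11 and 10 arrays, which limits their values. The lists named for resident and recruited cells thus had medians of -0.38 and -0.29. In whole ventricle these genes do not separate the cell kinds, and the difference between the medians was not tested.

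Beside Cd163, the haem-degrading enzyme Hmox1 was at -1.0 ± 0.23, the largest difference of the 41 genes (adjusted p = 0.151 in limma). Its diets did not overlap, as for 0.977% of all probes in that direction. The iron exporter Slc40a1 was at -0.28 ± 0.13 and haptoglobin, Hp, at -0.02 ± 0.41. Of the broad list, the complement genes C1qa, C1qb and C1qc were at -0.38, -0.33 and -0.42, the iron transporter Slc11a1 at -0.71 ± 0.28, the lysosomal protein gene Laptm5 at -0.35 ± 0.13 and the chemokine Pf4 at -0.39 ± 0.16. Cybb, which encodes the NADPH oxidase catalytic subunit, was at -0.38 ± 0.19, the protease Ctss at -0.31 ± 0.16 and the pan-leukocyte gene Ptprc (CD45) at -0.08 ± 0.15. The Cybb probe was dim, from 2.5% on a normal sodium array to 6.26% on a normal sodium array with AngII. The scavenger receptor Msr1 was at -0.09 ± 0.24 but dim, well above background on at most 11 arrays.

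**Figure D4:**
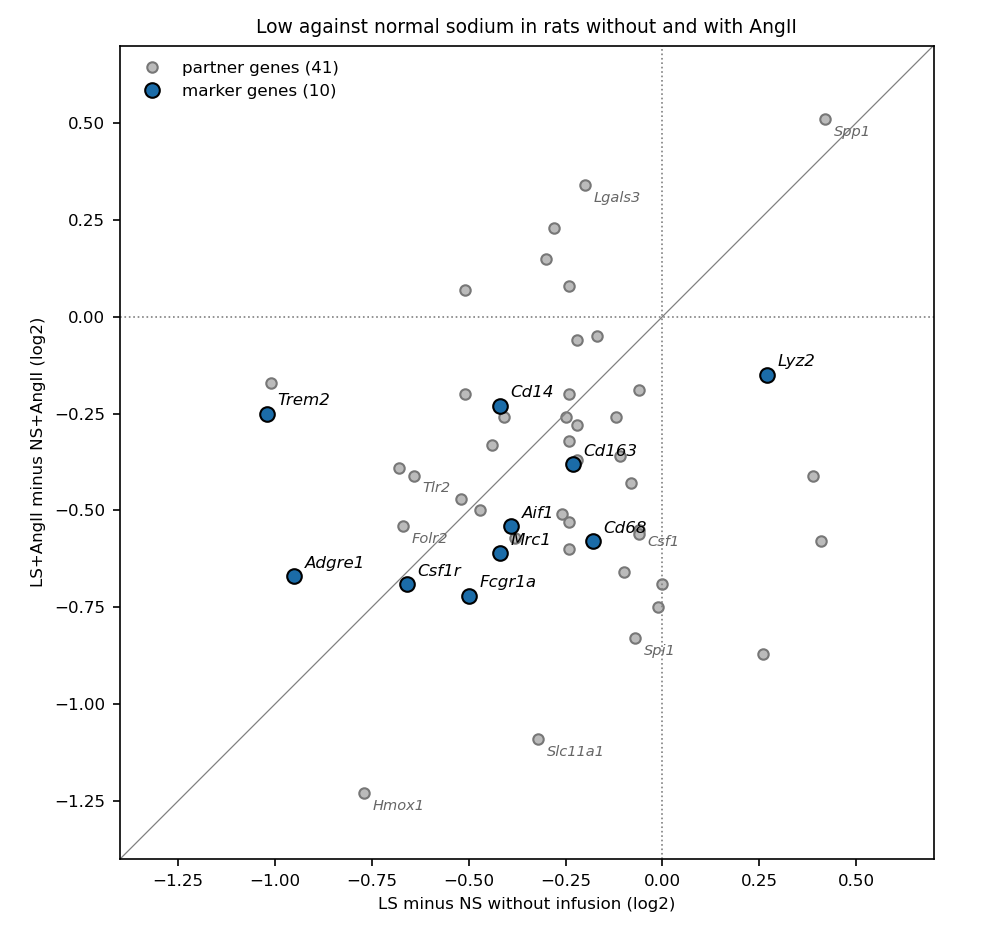
Log2 difference between low and normal sodium without infusion (horizontal axis) and under AngII (vertical axis), comparisons that share no array, for the 10 marker genes and the 41 partner genes tested. Trem2, Itgam and Adgre1 lie far to the left, Hmox1 and Slc11a1 at the bottom, and Spp1 is above 0 on both axes. The Itgam probe was dim, with a relative signal of 0.696 to 1.83% in low sodium hearts and 1.58 to 3.07% in normal sodium hearts.

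Markers of several other cell types moved with these genes, others did not, and their part in the result was not tested. The sums given for a list are carried by its brightest probes, so the list's median difference stands beside them. Endothelial genes (6 of 6 tested) were all below 0, median -0.26, and 4 of them were lower at the unadjusted level (8.47% of all probes), Tie1 at -0.66 ± 0.18. Their summed relative signal was 1743 to 2000% in low sodium hearts with AngII and 1547 to 2165% in low sodium hearts, against 1918 to 2128% in normal sodium hearts with AngII and 1607 to 2782% in normal sodium hearts. With each gene centred and weighted equally, their mean log2 level was -0.21 to -0.10 in low sodium hearts with AngII and -0.35 to -0.05 in low sodium hearts, against 0.13 to 0.23 in normal sodium hearts with AngII and -0.14 to 0.34 in normal sodium hearts. Fibroblast genes (6 of 6 tested) were also all below 0, median -0.29, with 5 lower at that level. Their sum was 4174 to 4679% in low sodium hearts with AngII and 3963 to 4008% in low sodium hearts, against 4780 to 5631% in normal sodium hearts with AngII and 4725 to 5376% in normal sodium hearts. Weighted equally, their mean was -0.25 to 0.03 in low sodium hearts with AngII and -0.18 to -0.11 in low sodium hearts, against 0.07 to 0.28 in normal sodium hearts with AngII and -0.04 to 0.26 in normal sodium hearts. The heart muscle genes used to check the tissue (7 of 7 tested) had a median of -0.04, and none was lower at the unadjusted level.

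Lymphocyte genes (8 of 12 tested) had a median of -0.21 and all were below 0. Their sum was 80.9 to 130% in low sodium hearts with AngII and 79.1 to 124% in low sodium hearts, against 115 to 128% in normal sodium hearts with AngII and 118 to 167% in normal sodium hearts. Mast cell genes (4 of 5 tested) had a median of -0.35, led by Kit at -0.83 ± 0.18, and their sum was 27.97 to 47.76% in low sodium hearts with AngII and 27.58 to 31.94% in low sodium hearts, against 38.14 to 65.97% in normal sodium hearts with AngII and 37.21 to 41.88% in normal sodium hearts. Neutrophil genes (4 of 8 tested) had a median of -0.05, and dendritic cell genes (3 of 5 tested) one of -0.02, with Clec9a at -0.44 ± 0.21, Zbtb46 at -0.02 ± 0.34 and Ccr7 at 1.04 ± 0.41. These dendritic cell genes were dim, which limits their values. Clec9a and Zbtb46 were well above background on at most 10 arrays and Ccr7 on at most 8. The defining markers Cd3e, Elane, Ngp, Xcr1 and Ms4a2 were too dim to test. On low sodium replicate 2, where the macrophage genes were lowest (-0.62 from their own means), other immune lists were also low. Neutrophil genes averaged -0.76, lymphocyte genes -0.64, mast cell genes -0.43 and dendritic cell genes -0.15. Fibroblast genes averaged -0.18 and endothelial genes -0.05.

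Other lists went a different way from the macrophage genes, smooth muscle and red cell genes only without infusion, and atrial muscle genes in the mean diet effect. Smooth muscle and pericyte genes (6 of 6 tested) had a median of 0.53 without infusion, where 5 were above 0, and of -0.20 under AngII, where all 6 were below 0. Their sum was 659.6 to 958.5% in low sodium hearts with AngII and 831 to 866.8% in low sodium hearts, against 881.3 to 1120% in normal sodium hearts with AngII and 600.4 to 819.7% in normal sodium hearts. Red cell genes (2 of 4 tested) had medians of 0.46 without infusion and -0.60 under AngII. Atrial muscle genes (3 of 4 tested) were all above 0 in the mean diet effect, with Sln at 2.19 ± 0.86, Myl7 at 0.91 ± 0.74 and Myl4 at 0.01 ± 0.09, and none of them passed the adjusted test.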

How the data were processed

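Left ventricle RNA was measured on 12 Agilent one-colour (Cy3) arrays. Per the file headers, the deposited scanner values are intensities from Feature Extraction 10.7.3.1, corrected by that software for background and for spatial trend and not scaled between arrays. The submitters' processing notes name version 11.0.1.1, R 3.3.04 and limma, with no order or role. Per the file headers, the deposited flag columns give each spot's outlier, uniformity, saturation and background calls. The authors' deposited value table holds log2 values of 20438 probes, normalised between arrays by a method not given in the sources used here, and followed the scanner intensity (Spearman's rho 0.996 to 0.999 across probes).

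Control and outlier-flagged spots were left out, spots of a probe averaged, and each array's log2 processed intensities shifted so that their 75th percentile was 0. A probe was tested where at least 0.5 of its spots were well above background on all 3 arrays of a group, which kept 20020 of 30367. Identifiers were matched to symbols through a RefSeq table (GRCr8), and a gene was valued by its brightest probe. All 12 arrays entered 1 fit with limma 3.58.1 in R 4.3.3 (1 mean per group, two-sided, adjusted over 20020 probes, threshold 0.05), which was tested on simulated data. The number of arrays limits the precision, and where nothing names separate animals beyond the replicate labels, p-values measure the spread between these samples only. Replicate numbers mark a shared slide, per the file headers. After group means were removed, 17 of 18 same-numbered pairs from different groups correlated above 0.1 (0.0469 to 0.432). The median was -0.181 for the other pairs between groups. Removing group means pushes those other pairs below 0 when same-numbered pairs lie above 0, so the median is no independent comparison. Alternatives were the slide as a block, normexp, the authors' values, median and quantile scaling, no filter, mean of probes, array weights and leaving out arrays. Normexp stands for normexp correction of the median spot intensity with an offset of 50, followed by quantile normalization. The rule for named genes was all 10 genes whatever their values, the 5 genes most like their mean by Pearson's r, the 1 most like Adgre1, and members of the partner and cell type lists. The genes and lists were chosen with earlier results of these data known, so nothing here is independent support for them.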

Additional observations from a re-analysis of the deposited data

How the results depend on the processing

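Of 690 diet values of single genes under the 23 alternatives each, 676 kept their direction. Many of these could not have changed it. The slide block, the lack of a filter and the loss of an array outside a comparison leave its differences as they were. The mean diet effect is also the average of the differences without infusion and under AngII. With the replicate block (slide), limma again called 0 probes in all 6 comparisons, 4, 6 and 7 of the genes were lower at the unadjusted level without infusion, under AngII and on average, and the Adgre1 mean effect was -0.81 (adjusted p = 0.0912); the block changed no other call. Under AngII the count of probes called was 4 with normexp, 2 with the authors' values, 4 with median scaling, 1 with quantile normalization and 8 with array weights. For the mean diet effect it was 3 with normexp, 1 without the filter and 81 with array weights. For AngII on normal sodium it was 6 with normexp and 5 with the authors' values. The median of the 10 genes was -0.36 under AngII, -0.38 on average and 0.01 for AngII on normal sodium with normexp, and 0.02 for the last with the authors' values. For AngII on normal sodium 5 genes were below 0 with normexp.

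Single genes turned sign as follows. Lyz2 had a mean diet effect of -0.02 with the authors' values and 0 with array weights. For AngII on normal sodium, normexp gave Aif1 -0.08 and Cd163 -0.06, the authors' values gave Adgre1 0.02 and Mrc1 -0.01, and array weights gave Cd14 0.02 and Lyz2 -0.04. For AngII on low sodium, Fcgr1a was 0 as the mean of its probes and Aif1 0.01 with array weights. For the interaction, normexp gave Aif1 0.02 and Cd163 0.07, the authors' values gave Mrc1 0.20, and median scaling and quantile normalization both gave Csf1r 0.02. The cause of these shifts was not tested.

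Leaving out 1 array, or 1 replicate number in every group, gave 0 to 1 probes called without infusion, 0 to 3 under AngII, 0 to 20 on average and 0 to 9 for AngII on normal sodium. The highest of these counts came without normal sodium replicate 2 or 3 (1), normal sodium replicate 1 (3), normal sodium replicate 2 (20) and low sodium replicate 1 (9), in that order. Without infusion the diet difference ranged over -0.59 to 0.28 for Cd163, -0.44 to 0.04 for Cd68, -0.73 to 0.01 for Mrc1 and -0.32 to 0.57 for Lyz2. For Lyz2 it was -0.30 to 0.03 under AngII and -0.18 to 0.21 on average. For AngII on normal sodium, the median was 0.01 to 0.24 with 1 to 5 genes below 0. There Adgre1 was -0.26 to 0.09, Aif1 -0.02 to 0.25, Cd14 -0.20 to 0.10, Cd163 -0.05 to 0.42, Csf1r -0.07 to 0.21, Lyz2 -0.21 to 0.49 and Trem2 -0.41 to 0.21. For AngII on low sodium 0 to 8 genes were below 0. There Aif1 was -0.19 to 0.08, Cd14 -0.19 to 0.38, Cd163 -0.29 to 0.26, Cd68 -0.20 to 0.13, Csf1r -0.26 to 0.36, Fcgr1a -0.21 to 0.35, Lyz2 -0.48 to 0.13 and Mrc1 -0.06 to 0.63. For the interaction 3 to 8 genes were below 0, with Aif1 -0.29 to 0.02, Cd14 -0.30 to 0.58, Cd163 -0.67 to 0.26, Csf1r -0.35 to 0.21, Fcgr1a -0.41 to 0.09, Lyz2 -0.85 to 0.28 and Mrc1 -0.57 to 0.14. Mrc1, whose intensity was of the order of the local background, is limited by its signal, and its mean diet effect was -0.12 with the authors' values.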
